A study of Cavia porcellus with 72 samples.

Results

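The machinery that releases transmitter from synaptic vesicles was followed in the hippocampal transcriptomes of 3 generations of guinea pigs. Its genes were taken by symbol: the synaptotagmins and synaptotagmin-like proteins (SYT, SYTL), syntaxins and their binding proteins (STX, STXBP), VAMP, SNAP and VTI1 genes, complexins (CPLX), UNC13 and RIMS genes, NAPA, NAPB and NSF, SCFD and VPS33 genes, synaptophysins (SYP, SYPL), SYN1 to SYN3, SV2 genes and the exocyst subunits (EXOC). The rule used no measured value. It found 81 genes of 11927 in the 3 tables together, 77 of 11651 in F1, 80 of 11716 in F2 and 77 of 11663 in F3, and 76 of them stood in all 3 tables. NSF and VAMP2 were not analysed here.

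Animals were Dunkin-Hartley females whose brains were taken at postnatal day 40. Pregnant F0 guinea pigs received repeated courses of betamethasone, a synthetic glucocorticoid (sGC), or vehicle (control), during gestation. F1 animals are their daughters, F2 animals were fathered by F1 males and F3 animals by F2 males, in each case with females from outside the experiment, so that of the 3 only F1 was exposed as a fetus and the lineage is paternal. Polyadenylated RNA of the right hippocampus was sequenced from 6 control and 5 sGC animals in F1, 6 and 6 in F2, and 6 and 7 in F3, and each animal had a mother of its own.

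A vesicle docks at the active zone and fuses when a SNARE protein of its own membrane (a VAMP) coils together with SNARE proteins of the plasma membrane, a syntaxin and SNAP25. UNC13 proteins and RIM proteins prepare and place this complex, complexins hold it ready, synaptotagmins sense the calcium that triggers fusion, and NSF with the SNAP adaptors NAPA and NAPB takes the used complexes apart. Related syntaxins and VAMPs serve the Golgi and endosomes of every cell, and the exocyst tethers vesicles to the plasma membrane outside the synapse as well.

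The deposited numbers are on the scale of read counts and sum to between 13507449 and 19767033 per library, but they did not behave as counts of reads. In each table the logarithms of the values of all libraries obeyed 1 linear relation almost exactly: over the 8092, 8071 and 8128 genes above a value of 200 in every library of F1, F2 and F3, its root mean square was 0.000497, 0.000492 and 0.000503 (natural log), against 0.0603, 0.0510 and 0.0525 for the next direction. The weights of the relation summed to at most 0.01 within a group, as they do in values from which 1 factor of variation between animals of the same group has been taken out and the difference between groups has not. Libraries of a group are then more alike than the animals were, and the step that did this is not given in the sources used here. The weight fell mostly on 1 library in F1 and F3, control 6 and sGC 5. In F2 it was spread more widely, and control 3 had the largest share (32.8% of the squared weights). The values of F3 sGC 5 followed from those of the other libraries with a median difference of 0.0224%, and F1 control 6 with one of 0.0248%. F2 control 3 followed with one of 0.0317%, so these libraries are not independent measurements. The fit used here gives up the degree of freedom that the relation takes. Levels are given as adjusted CPM (the value of a gene per 1000000 of its library's total, scaled by the median ratio between libraries), and differences as log2 fold changes, sGC against control, of CPM + 0.5, tested with limma within a generation with Benjamini-Hochberg adjustment over all genes. A CPM level grows with transcript length and is compared only within a gene.

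Another library stood apart by its values. F1 sGC 4 was the lowest or the highest of the 11 F1 libraries for 59.2% of the 76 members tested, and for 43.8% of all genes, where no other F1 library passed 26.3% of the members. Its astrocyte marker sum was 17210 CPM, against 9600 to 12390 in F1 control. By its title it is 1 of 5 libraries numbered 32 to 36, outside the run of their generation, and these are all sGC libraries (F1 sGC 4 and 5, F2 sGC 6, F3 sGC 5 and 6), so that what the numbers stand for and sGC cannot be told apart in them. Calls of members, and values of members whose sign rests on these libraries, are given with and without them. Calls of the cell type markers and of other presynaptic genes are given with all libraries only. Of 12 neuron markers 11 stood in the tables, with summed levels between 6410 and 7504 CPM in every library.

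In F3, 12 of 76 members tested passed the threshold, an adjusted p of 0.05, 9 lower and 3 higher in sGC animals, against 3.15% of all 11394 genes (1.73% lower, 1.42% higher). The lower ones were the vesicle proteins SYP, SV2A, SV2B and SYN1 and the synaptotagmins SYT1 and SYT4. Also lower were the SNARE protein SNAP25, its disassembly adaptor NAPB and the exocyst subunit EXOC1. The higher ones were the RIM genes RIMS2 and RIMS4 and the Golgi SNARE gene VTI1A. In F1, 1 of 76 passed, VTI1A, which was higher, against 0.78% of all 11406 genes (0.728% higher, 0.0526% lower). In F2, 0 of 79 passed with limma, with voom weights as well, and 0% of all 11425 genes did. Unadjusted p lay below 0.05 for 9 members in F1, 7 in F2 and 25 in F3, against 16.6%, 5.28% and 18.6% of all genes. The median log2 fold change of the members was -0.0064 in F1, -0.010 in F2 and -0.022 in F3, beside -0.0029, -0.00063 and 0.0055 over all genes tested. Below 0 were 42 of 76, 45 of 79 and 43 of 76 members, beside 51%, 50.5% and 47.8% of all genes. By these medians the members as a whole lay close to the other genes in every generation.

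**Figure D1:**
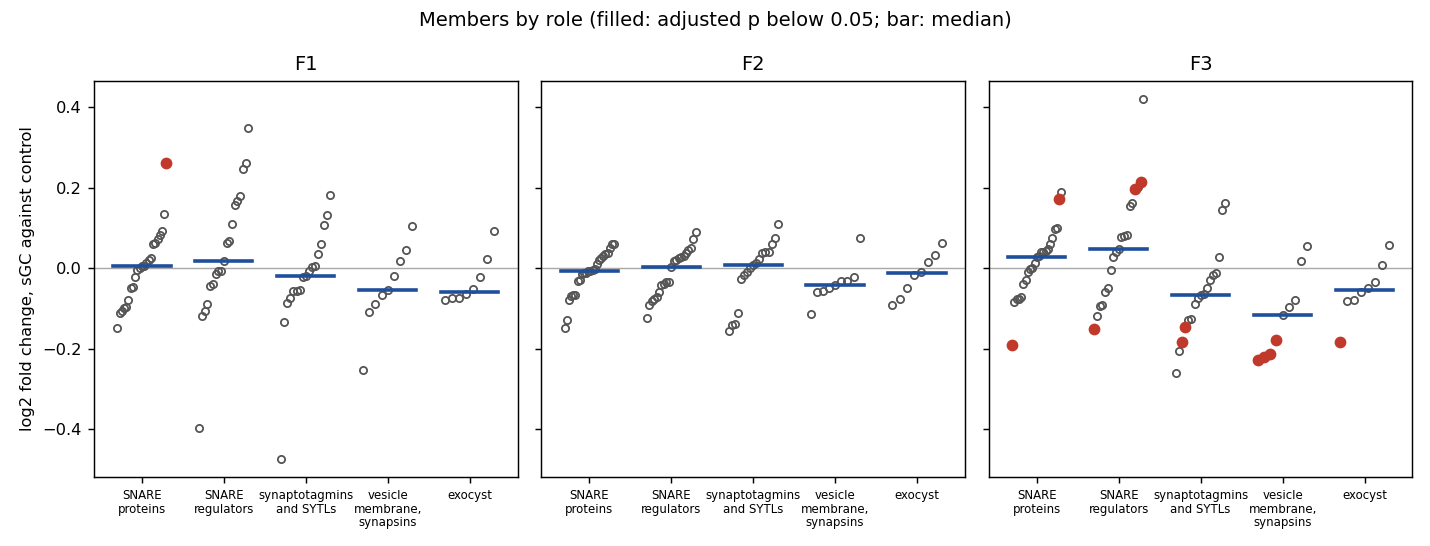
Log2 fold change of every member tested, sGC against control, by role and generation (76, 79 and 76 genes). Filled points passed an adjusted p of 0.05 and bars are medians: the vesicle membrane proteins and synapsins of F3 have the lowest median, -0.12.

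**Figure D2:**
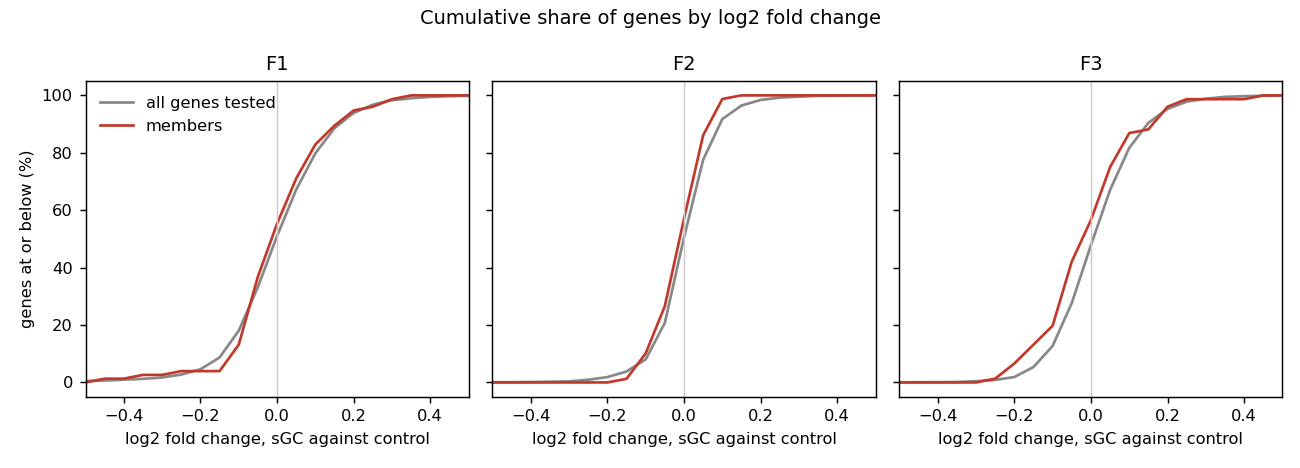
Percentage of genes at or below each log2 fold change, sGC against control, for the members and for all genes tested. In F3 the members' curve lies to the left of that of all genes between -0.25 and 0 (lower quartile -0.085 against -0.057).

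The vesicle membrane proteins and synapsins held the largest share of calls in F3. Of 9 members 4 passed, all lower (1.73% of all genes), and the median log2 fold change of the 9 was -0.12. Their summed level lay between 4269.5 and 4597 CPM in control and between 3811 and 4106 in sGC libraries, with no overlap. SYP encodes synaptophysin, the abundant four-span protein of synaptic vesicles. It lay between 1247 and 1322 CPM in F3 control animals (median 1285) and between 1056 and 1149 for the sGC group (median 1110.0). All 7 sGC libraries were thus below all 6 controls, and the log2 fold change was -0.21 (SE 0.0322, adjusted p = 0.00682 from limma), the smallest p among the members. SV2A, a glycoprotein of the vesicle membrane that binds synaptotagmin, ran from 784 to 898 CPM in control (median 838) and from 673 to 732 among sGC animals (median 716). Its groups did not overlap either, and it fell by 0.23 on the log2 scale (SE 0.0380, adjusted p = 0.00895 from limma). Its paralog SV2B had 526 to 585 CPM in control (median 563) and 453 to 526 for the sGC group (median 475). Only the highest sGC library, replicate 7 at 526.2 CPM, reached the lowest control at 525.8, and the log2 fold change was -0.22 (SE 0.0388, adjusted p = 0.0102 from limma). SYN1, synapsin I, ties vesicles of the reserve pool to the cytoskeleton. It lay between 805 and 879.7 CPM in control (median 854) and between 711 and 827 among sGC animals (median 739), with 1 sGC library, replicate 3, inside the control range. Its log2 fold change was -0.18 (SE 0.0406, adjusted p = 0.0274 from limma).

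The other members of the group did not pass in F3. SYN2 had a log2 fold change of -0.12 (SE 0.0536, adjusted p = 0.261 from limma), and SV2C one of -0.10 (adjusted p = 0.436). SYN3 and the more widely expressed SYPL1 were at 0.056 and 0.017 (adjusted p = 0.663 and 0.856).

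**Figure D3:**
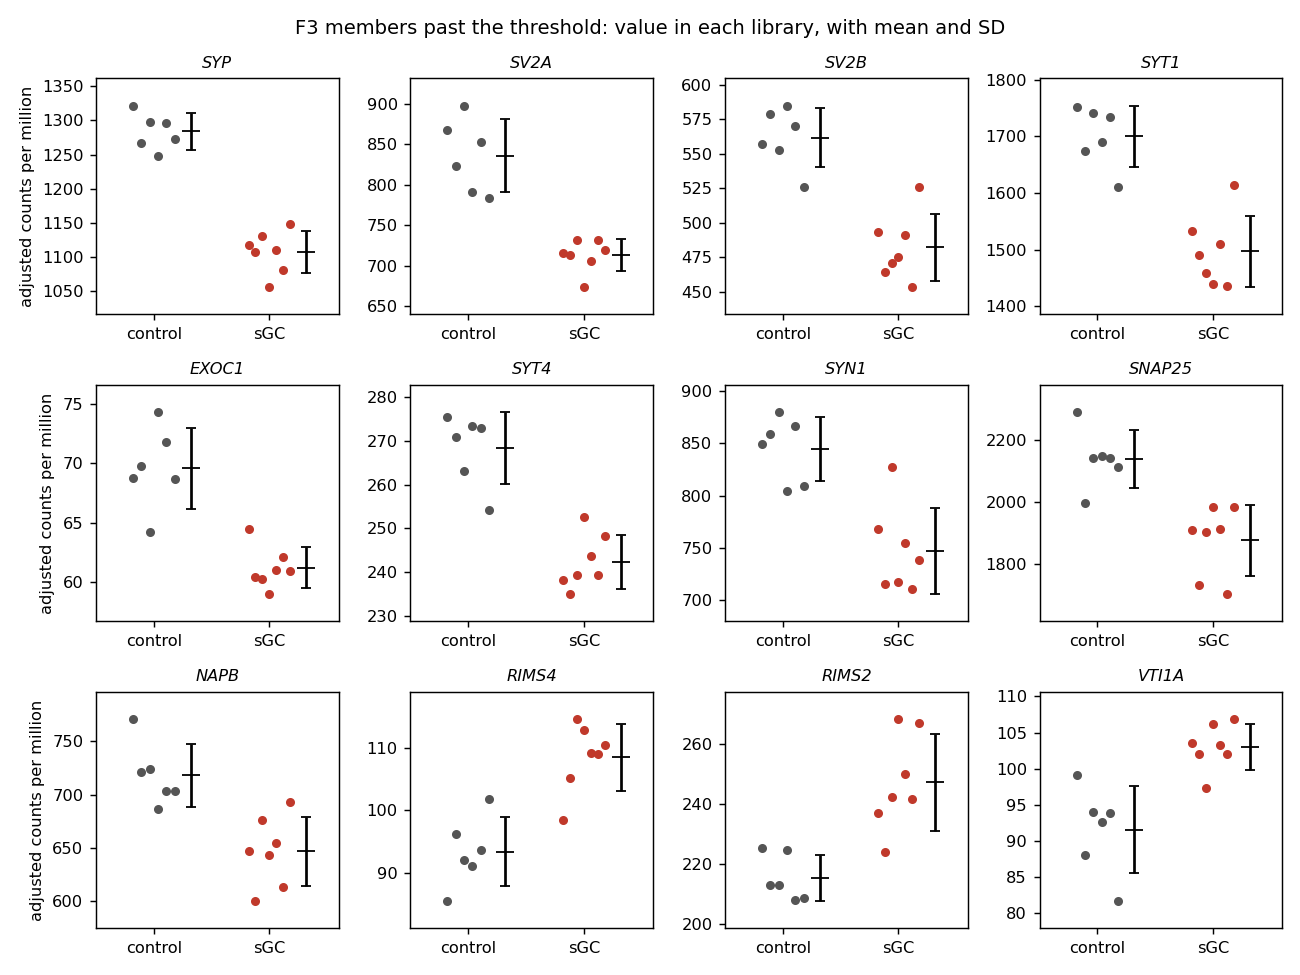
Adjusted CPM in each F3 library for the 12 members past the threshold, with group mean and SD (6 control and 7 sGC animals, vertical axes not starting at 0). SYP, SV2A, SYT4 and SNAP25 have no sGC library inside the control range, and the remaining 8 genes overlap by some libraries.

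Of the 17 synaptotagmins and synaptotagmin-like genes tested in F3, 14 were below control, beside 47.8% of all genes. Past the threshold were 2, both lower (1.73% of all genes), and the median log2 fold change of the 17 was -0.067. SYT1 is the calcium sensor of fast, synchronous release in the forebrain. Its controls lay between 1610.2 and 1752 CPM (median 1713) and its sGC libraries between 1435 and 1613 (median 1489.8). Replicate 7 of sGC, the highest, was just above the lowest control, and the log2 fold change was -0.18 (SE 0.0381, adjusted p = 0.0186 from limma). SYT4, an activity-regulated synaptotagmin of dense-core vesicles that does not bind calcium in the usual way, had 254 to 276 CPM in control (median 272) and 235 to 253 for the sGC group (median 239). The groups did not overlap, and the log2 fold change was -0.15 (SE 0.0307, adjusted p = 0.0195 from limma). SYT12 stood just outside the threshold, at -0.21 (SE 0.0563, adjusted p = 0.0588 from limma). SYT6, SYT11, SYT2 and SYT17 had log2 fold changes of -0.26, -0.090, -0.13 and -0.13, with unadjusted p below 0.05 and adjusted p from 0.127 to 0.268. SYT7, the slow, high-affinity sensor, was at 0.027 (adjusted p = 0.843), and 3 of the 17 genes in all were above control.

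Among 23 SNARE genes tested in F3, 1 passed lower and 1 higher (1.73% and 1.42% of all genes), with a median log2 fold change of 0.029. SNAP25, the neuronal plasma membrane SNARE, ran from 1998 to 2290.3 CPM in control (median 2144) and from 1704 to 1986 among sGC animals (median 1912). Every sGC library was below every control, though by little at the edge, and the log2 fold change was -0.19 (SE 0.0468, adjusted p = 0.0366 from limma). VTI1A, a SNARE of the Golgi and endosomes that is also found on some synaptic vesicles, lay between 81.7 and 99.1 CPM in control (median 93.2) and between 97.2 and 107 for the sGC group (median 103). Only sGC replicate 3 lay inside the control range, and the log2 fold change was 0.17 (SE 0.0425, adjusted p = 0.0378 from limma). Partners of SNAP25 in the fusion complex did not pass: STX1A was at -0.039 and VAMP1 at -0.077 on the log2 scale (adjusted p = 0.743 and 0.629 from limma). SNAP23 and SNAP47, paralogs of SNAP25, were at 0.0016 and 0.040 (adjusted p = 0.993 and 0.620).

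The regulators of the SNARE complex moved in both directions in F3 (median 0.049). Of 19 tested, 2 passed higher and 1 lower, against 1.42% and 1.73% of all genes. RIMS4 and RIMS2 encode RIM proteins, whose long forms are scaffolds that bring vesicles and calcium channels together at the active zone. RIMS4 encodes only a short gamma form. RIMS4 had 85.6 to 101.8 CPM in control (median 92.9) and 98.4 to 115 among sGC animals (median 109), with a log2 fold change of 0.22 (SE 0.0442, adjusted p = 0.0183 from limma). Only 1 sGC library, replicate 1, fell inside the control range. RIMS2 had 208 to 225 CPM in control (median 213) and 224 to 268 for the sGC group (median 242), with a log2 fold change of 0.20 (SE 0.0430, adjusted p = 0.0231 from limma). Again 1 sGC library, replicate 2, reached into the controls. RIMS1 was above the control mean in 7 of 7 sGC libraries, at 0.16 (SE 0.0519), but did not pass (adjusted p = 0.113 from limma), and RIMS3 was at 0.079 (adjusted p = 0.608). NAPB, the brain form of the adaptor that recruits NSF to used SNARE complexes, lay between 686 and 771 CPM in control (median 712) and between 599.9 and 693 among sGC animals (median 647). The groups overlapped at replicate 7 of sGC, and the log2 fold change was -0.15 (SE 0.0400, adjusted p = 0.0494 from limma), the member nearest to the threshold from inside. Its general paralog NAPA was at -0.091 (adjusted p = 0.249).

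Other factors that prepare vesicles did not pass in F3. The priming factors UNC13A and UNC13B were at 0.049 and 0.082 (adjusted p = 0.677 and 0.458), and UNC13C had the largest log2 fold change of the members, 0.42, with a wide error (SE 0.148, adjusted p = 0.134). The complexins CPLX1 and CPLX2 were at -0.0048 and 0.078 (adjusted p = 0.973 and 0.335). SNAP91, a clathrin adaptor of vesicle recycling that the symbol rule brings in although it is no SNARE, was at -0.095 (adjusted p = 0.135).

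Of the 8 exocyst genes tested, 1 passed in F3, as lower, against 1.73% of all genes. EXOC1, a subunit of the tethering complex, ran from 64.2 to 74.3 CPM in control (median 69.3) and from 59.0 to 64.5 for the sGC group (median 60.9). The highest sGC library, replicate 1, was above the lowest control, and the log2 fold change was -0.18 (SE 0.0383, adjusted p = 0.0195 from limma). EXOC3 and EXOC3L1 were at -0.081 and -0.079 (adjusted p = 0.182 and 0.379), and EXOC2, EXOC5, EXOC6, EXOC7 and EXOC8 lay between -0.058 and 0.058.

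In F3, 4 members had groups that did not overlap with sGC below, where 1.83% of all genes did, and 0 with sGC above, where 0.878% did. Without F3 sGC 5, the library that follows from the others, the same 12 members passed, against 3.55% of all genes. Its values lay near a weighted mean of other sGC libraries, and it was at an extreme for 0 of 76 members. Leaving it out could thus move the group mean little, and this fit is no separate check. Without the 2 F3 libraries numbered above 31, 8 of the 12 passed (EXOC1, RIMS2, RIMS4, SV2A, SV2B, SYP, SYT1 and SYT4), and SNAP25, SYN1, NAPB and VTI1A did not. The share of all genes past the threshold fell as well, to 2.59% of 11400 from 3.15% with all libraries. With each library left out in turn, 7 members passed in every fit: SYP, SV2A, SV2B, SYT1, SYT4, EXOC1 and RIMS4. The count was lowest, 7, without control replicate 3, and it was 2, SYP and EXOC1, when all 3 generations shared 1 estimate of the spread.

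Markers of whole cell types moved beside these genes in F3, where 1.73% of all genes passed lower and 1.42% higher. Of 11 neuron markers tested 6 passed, all lower: NEFL, NEFM and NEFH, which encode neurofilaments, ENO2, UCHL1 and ELAVL4 (median of the list -0.16). Their summed level lay between 6605 and 7056 CPM in control and between 6410 and 6847 in sGC animals. TUBB3 was not analysed here. GAD1 and GAD2, which make GABA, fell among 7 interneuron markers, whose summed level was 679 to 779 CPM in control and 625 to 702 in sGC animals. Their log2 fold changes were -0.25 and -0.20 (adjusted p = 0.0286 and 0.0213 from limma). Of 9 astrocyte markers all were above control and S100B and SLC1A2 passed, with a summed level of 10604 to 11666 CPM in control and 11954 to 13304 in sGC animals, groups that did not overlap. Of 6 oligodendrocyte, 6 microglia, 7 endothelial, 2 choroid plexus and 7 meningeal fibroblast markers tested in F3, 0 passed. The part of these shifts in the fall of the vesicle genes was not tested, and in bulk tissue fewer cells of a type cannot be told apart from less RNA per cell.

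Other presynaptic genes, of the active zone and of vesicle transport, filling and recycling, were read from the same fit. Of 38, 1 passed higher in F3 and 6 lower (1.42% and 1.73% of all genes), with a median of -0.057. Higher was TSPOAP1, a RIM-binding protein, at 0.24 (SE 0.0357, adjusted p = 0.00682 from limma). The lower ones included RAB3A, the GTPase of vesicles that RIM proteins bind, at -0.17 (adjusted p = 0.0494), CADPS, which primes dense-core vesicles, at -0.21 (adjusted p = 0.0102), and the endocytic genes DNM1 and AMPH at -0.19 and -0.21 (adjusted p = 0.0410 and 0.0183). AP3B2, a neuronal coat subunit, and SLC6A17, a vesicular amino acid transporter, were at -0.15 and -0.20 (adjusted p = 0.0376 and 0.0123). In F1, 2 of the 38 passed, both higher, where 0.728% of all genes passed higher and 0.0526% lower. They were RIMBP2, a RIM-binding protein, at 0.37 (SE 0.0484, adjusted p = 0.00653 from limma), and RAB3C, a vesicle GTPase, at 0.45 (SE 0.0794, adjusted p = 0.0241). In F2, 0 passed.

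In F1, the daughters exposed in the womb, VTI1A was the 1 member past the threshold. It lay between 84.6 and 93.0 CPM in control (median 86.2), and at 93.5, 101, 106, 116 and 109.5 in sGC replicates 1 to 5. All 5 were above all 6 controls, the first by a small margin. The log2 fold change was 0.26 (SE 0.0540, adjusted p = 0.0445 from limma). It passed in 3 of 11 fits that leave out 1 library, and not without both libraries numbered above 31 (0 members, against 0.479% of all genes) or with totals unscaled. Without sGC 4 it was the 1 member to pass (1.53% of all genes). Without any 1 of control 1 to 5 or sGC 2, 3 or 5 the count of members was 0. Without sGC 1 it was 3, with RIMS1 and SV2C added. VTI1A thus passed as higher in F1 and in F3 with all libraries. In F3 it passed in 4 of 13 fits that leave out 1 library. Both generations hold sGC libraries numbered above 31, and without these it passed in neither. In F2 VTI1A was at 0.029 (SE 0.0393, adjusted p = 0.948 from limma).

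Of the marker lists, 0 genes passed in F1 with limma. The summed astrocyte markers there were 9600 to 12390 CPM in control and 10799 to 17210 in sGC animals, and those of meningeal fibroblasts 117 to 332 in control and 75.5 to 155 in sGC animals, the part of which in these values was not tested.

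The next members by p in F1 did not pass. RIMS1 had 230.4 to 265 CPM in control (median 248) and 240.0, 308, 277, 344 and 304 in sGC animals. Of these values 4 were above every control, and the log2 fold change was 0.25 (SE 0.0780, adjusted p = 0.147 from limma). STXBP4, a syntaxin 4 binding protein, was higher in all 5 sGC libraries than in any control, at 19.24, 20.65, 21.29, 23.45 and 19.99 CPM against 17.10 to 19.03. Its log2 fold change was 0.18 (SE 0.0620, adjusted p = 0.178 from limma). With it and VTI1A, 2 members had sGC wholly above control, where 2.6% of all genes did, and 1, STX18, wholly below, where 1.81% did. RIMS2 was at 0.26 (SE 0.0934, adjusted p = 0.194), with the highest sGC library, replicate 4, at 309 CPM and the other 4 between 203 and 231. Without replicate 4 its log2 fold change was 0.16 (adjusted p = 0.134 from limma). SV2C was at -0.25 (SE 0.0871, adjusted p = 0.176), the syntaxin of neurons STX1A at -0.15 (SE 0.0577, adjusted p = 0.225) and the Golgi syntaxin STX5 at -0.11 (SE 0.0419, adjusted p = 0.210).

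The members that fell in F3 did not pass in F1, where 1 sGC library lay far below the other 4 for many of them. SYP lay between 1188 and 1399 CPM in F1 control (median 1254), and at 1166, 1302, 1260.2 and 1285 in sGC replicates 1, 2, 3 and 5, but at 951 in sGC 4. SV2A was at 572 CPM in sGC 4 and between 832.5 and 862.7 in the other 4, beside 746 to 867 in control (median 842). SNAP25 was at 1593 CPM in sGC 4 and between 1974 and 2271 in the others, within the control range or just above it (1881 to 2263, median 2074). The log2 fold changes in F1 were -0.11 for SYP, -0.088 for SV2A and -0.050 for SNAP25, with adjusted p from 0.541 to 0.822. Without sGC 4 those of SV2A and SNAP25 were 0.024 and 0.031, so that their sign rested on this library, and that of SYP was -0.029.

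In F2, the granddaughters through F1 fathers, every member's log2 fold change lay between -0.16 and 0.11 and no adjusted p was under 0.902. SYT1, the fast calcium sensor, had the smallest p: its controls ran from 1816 to 1924 CPM (median 1891) and its sGC libraries from 1643 to 1815 (median 1745). All 6 sGC libraries were below all 6 controls, but only just: sGC 1 was at 1814.8 CPM and control 4 at 1815.7. It was the 1 member so placed, where 0.193% of all genes were. With the 3 generations scaled together its F2 groups overlapped slightly (sGC up to 1794.7 CPM, control from 1794.1). The log2 fold change was -0.11 (SE 0.0327, unadjusted p = 0.00350, adjusted p = 0.902 from limma). STX16, a syntaxin of the trans-Golgi network, had 26.8 to 30.9 CPM in control (median 29.2) and 24.8 to 26.9 among sGC animals (median 26.3). It was below the control mean in 6 of 6, at -0.15 (SE 0.0460, adjusted p = 0.902). UNC13B was below it in 6 of 6 as well, at -0.12 (SE 0.0446, adjusted p = 0.902). Above it in 6 of 6 were RIMS4 at 0.090 (SE 0.0411), SYTL5, a synaptotagmin-like RAB27 effector, at 0.11 (SE 0.0517), and SYT5 at 0.076 (SE 0.0426), each with an adjusted p of 0.902 from limma. SYP, SV2A and SNAP25 were at -0.023, -0.031 and -0.066 (adjusted p = 0.959, 0.944 and 0.902). Without F2 sGC 6 they were at -0.00055, 0.0019 and -0.030, and the sign of SV2A turned.

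Of the 15 genes of the fusion core in the tables, 0 passed in F1 or F2 with limma. The vesicle SNARE gene VAMP1 was at 0.14, -0.070 and -0.077 in F1, F2 and F3 (adjusted p = 0.257, 0.902 and 0.629). UNC13A was at 0.11, 0.029 and 0.049 and CPLX2 at 0.17, 0.026 and 0.078, with no adjusted p under 0.315. CPLX1 was at -0.039, -0.042 and -0.0048, NAPA at -0.12, 0.051 and -0.091, and NAPB, which fell in F3, at -0.0060 and -0.035 in F1 and F2. SYN1 was at -0.067 in F1 and -0.031 in F2, beside its fall in F3. Without F1 sGC 4, SYN1, NAPB and NAPA were at 0.016, 0.053 and -0.075 in F1. Without all F1 libraries numbered 32 to 36 they were at -0.022, 0.027 and -0.078. The sign of NAPB thus turned in both fits, and that of SYN1 only in the fit without F1 sGC 4 alone. Without F2 sGC 6, SYN1, NAPB and CPLX1 were at -0.0042, -0.014 and -0.0079 in F2, and VAMP1 and CPLX2 at -0.046 and 0.012.

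**Figure D4:**
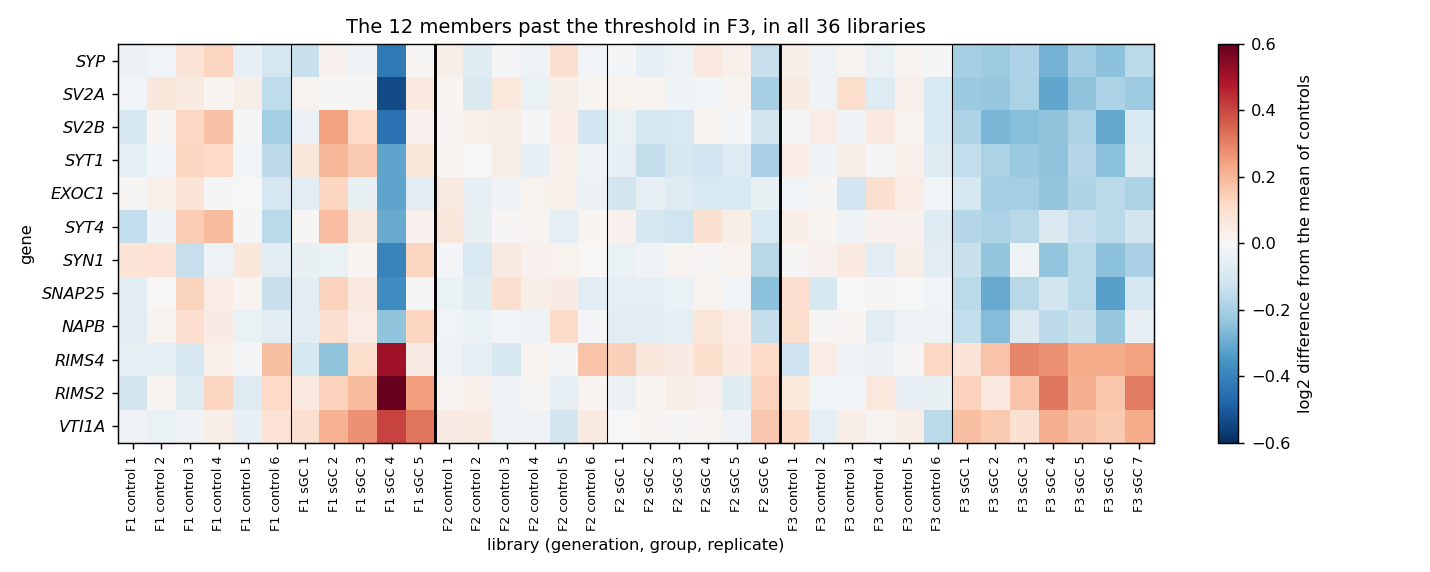
Log2 difference of each library from the mean of the controls of its generation, for the 12 members past the threshold in F3 (rows, lower ones first) in all 36 libraries (columns; thick lines part generations, thin lines groups). The F3 sGC libraries are lower for the first 9 rows and higher for the last 3, and in F1 sGC 4 all 12 have the same direction (colours stop at ±0.6).

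Set against all libraries, the 12 members had the direction they have in F3 together in 1 of 5 F1 and 1 of 6 F2 sGC libraries. They were F1 sGC 4, with a median of -0.38 for the lower members and 0.51 for the higher ones against the control mean, and F2 sGC 6, with -0.14 and 0.14. Both carry titles numbered 32 to 36, as do F3 sGC 5 and 6, and F1 sGC 5, the fifth library so numbered, had 5 of the 12 in that direction. In the F3 libraries with other numbers the median of the lower members ran from -0.24 to -0.11, and in F3 sGC 5 and 6 it was -0.17 and -0.24. The 12 were chosen in a fit of all 13 F3 libraries, which fixes much of their direction there. In the other 4 F1 sGC libraries 3 to 8 of the 12 members had the F3 direction, and in the other 5 of F2, 5 to 11 had it.

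The difference between generations was tested as an interaction in 1 limma fit of all 36 libraries, over 11415 genes. None of the 76 members passed for F3 against F1, F2 against F1 or F3 against F2, and 0% of all genes did. Unadjusted p lay below 0.05 for 6, 12 and 8 members, and limma with voom weights gave 0 as well. For SYT1, F3 minus F1 was -0.22 on the log2 scale (SE 0.0839, adjusted p = 0.363), for SYP -0.11 (SE 0.0769, adjusted p = 0.648) and for SNAP25 -0.14 (SE 0.0908, adjusted p = 0.600). For VTI1A, F2 minus F1 was -0.23 (SE 0.0669, adjusted p = 0.132), the smallest adjusted p of a member in these tests.

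Without F1 sGC 4, 3 members passed for F3 against F1, all negative, against 2.32% of all genes: SYT1 at -0.31 (SE 0.0604, adjusted p = 0.0102), SV2A at -0.25 (SE 0.0557, adjusted p = 0.0148) and SV2B at -0.31 (SE 0.0729, adjusted p = 0.0202). RIMS4 and SYP were at 0.26 and -0.18 (adjusted p = 0.0558 and 0.0722). Without all 5 libraries numbered 32 to 36, SYT1, SV2A, SV2B and RIMS4 passed for F3 against F1 (3.42% of all genes), STX16 for F2 against F1 (0.297%) and SV2A for F3 against F2 (0.0525%). Whether SYT1, SV2A and SV2B passed for F3 against F1 thus depended on F1 sGC 4. So did the calls over all genes, 0% with this library and 2.32% without it, so this was not particular to the members.

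Among the members, the genes whose levels varied most like SNAP25 from animal to animal were SYT1, SV2B, NAPB, SYP and SNAP91. Their Pearson r with SNAP25 over 36 libraries, on log2 CPM after the group means were taken off, was 0.82, 0.82, 0.82, 0.80 and 0.78, where the median was 0.25 over the 75 other members and -0.013 over 11414 genes. The libraries share 1 removed factor per generation, and F1 holds the library that stands apart: for SYT1, r was 0.98 within F1, 0.60 within F2 and 0.51 within F3. Of these 5, NAPB had the highest r within F3, 0.74. At the other end stood SYTL3 and RIMS4, at -0.67 and -0.64. These too were strongest within F1: SYTL3 was at -0.88, -0.54 and -0.34 within F1, F2 and F3, and RIMS4 at -0.84, -0.36 and -0.14. Over all 2850 pairs of members the median r was 0.041, from -0.77 to 0.93.

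Some members were too low to be tested or stood in only some of the tables. STX11 in F1 and F3 and SYTL1 in F2 had too few values of 10 or more to be tested. SNAP29, STXBP2, VPS33B and SYTL1 stood in the F2 table alone, and STX11 in those of F1 and F3. SNAP29 (20.5 to 25.7 CPM) and VPS33B (38.5 to 48.0 CPM) were not low in F2, and why F1 and F3 lack them was not tested. SYTL3, a RAB27 effector, had under 1 CPM on average in every group, 0.796 ± 0.318 (SD, n = 6) in F1 control and 0.440 ± 0.294 (SD, n = 5) in F1 sGC animals, where its log2 fold change of -0.47 (SE 0.223, adjusted p = 0.307) was the largest decrease of a member by size without passing. Some levels differed more between tables than between groups, such as SV2A, with a control mean of 829 CPM in F1, 526 in F2 and 836 in F3, and STX16, with 58.7, 29.1 and 62.9. The tables were made separately, so that generation and table cannot be told apart in such levels.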

How the data were processed

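RNA-seq of 36 right hippocampi (6 groups in 3 generations) was analysed from 1 table per generation. Per the labels, the authors aligned reads with TopHat2 and used edgeR. The deposited whole numbers are a score on the scale of counts, since they behave as counts from which 1 factor was removed, by a step not given in the sources used here. The quasi-likelihood count test of the authors' package edgeR, planned at first, had been fitted and its calls seen when this was found, and limma 3.58.1 (R 4.3.3) then replaced it, its settings chosen before its own calls were seen. Library totals were scaled by the median ratio, genes with a value of at least 10 in as many libraries as the smaller group were kept, and log2(CPM + 0.5) was fitted with a trended variance and a term for the removed factor. Adjusted p are Benjamini-Hochberg over all genes, threshold 0.05. Interactions came from 1 fit of the 36 libraries.

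Totals of the deposited values per library were 13507449 to 19767033. The fit was tested on simulated data with the factor removed. There each gene varied independently of the others, and no factor was shared between animals before the removal. The simulation therefore cannot show how well the p-values hold where genes vary together, as in these libraries. Of 200 genes changed 1.15-fold it found 0 in F1, 80 in F2 and 54 in F3. Of 200 changed 1.5-fold it found 170, 182 and 177. In this simulation small changes were thus found least often in F1, which limits a comparison of the counts of calls between generations. Totals unscaled, no filter, a joint fit, the replicate block, libraries left out, no factor term, a pseudocount of 5 and voom weights were tried. Libraries of a group differed beyond counting noise, chi-square over degrees of freedom being 2.11 to 28.9 in 91 pairs, so none was merged. Members, lists and tests were chosen with earlier results of these data known. Named genes are those past the threshold, the 3 higher and 3 lower members with the smallest p in each generation, and 15 core genes in the tables, of which some are not reported here. The 5 nearest to SNAP25 by correlation are named too. Others named were chosen after their values were seen. The 6 methylation tables, which hold only the authors' differences and p-values, were not used.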

Additional observations from a re-analysis of the deposited data

Results flagged for a closer look

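In 10 of 120 groups of the named genes 1 library lay apart from the others by Dixon's test at 95%, and chance alone flags about 1 in 20. In F1, SV2A was 571.6 CPM in sGC 4 (other sGC libraries 833 to 863), STXBP4 was 17.1 in control 5 (18.33 to 19.03 in the others), and CPLX1 was 297.9 in control 2 (265 to 277).

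F2 sGC 6 lay apart, as the lowest of its group, for 3 genes: SNAP25 at 1893 CPM (others 2154 to 2278), SYN1 at 682 (743 to 775) and SV2A at 458 (516 to 533). Also in F2, STX16 was 24.8 in sGC 4 (26.1 to 26.9), CPLX1 was 273.5 in control 3 (241 to 247) and NAPB was 801 in control 5 (722 to 738). In F3, UNC13A was 882 in sGC 7 (714 to 785).

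For 2 genes every sGC library of one generation was above its control mean and every one of another below it. SYT5 had log2 fold changes of -0.087 in F1 and 0.076 in F2 (interaction adjusted p = 0.248 from limma), and UNC13B had -0.12 in F2 and 0.082 in F3 (interaction adjusted p = 0.666 from limma). Neither interaction passed.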

How the results depend on the processing

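The count of members past the threshold in F1 was 1. It was 0 with totals unscaled and without libraries 32 to 36, 3 when all 3 generations were fitted together, and 0 to 3 with each library left out in turn. In F3 it was 12, against 2 with all generations together, 13 without the factor term, 11 without a filter, 8 without libraries 32 to 36 and 7 to 12 with each library left out. In F2 it was 0 under all 20 alternatives. Interactions had 0 members past the threshold, against 1, 4 and 1 (F2 against F1, F3 against F1, F3 against F2) without libraries 32 to 36. With each library left out there were 0 to 3 for F3 against F1 and 0 for the other two. The members' median log2 fold change ran from -0.049 to 0.019 in F1, -0.020 to -0.0075 in F2 and -0.035 to -0.015 in F3. No named gene past the threshold reversed its sign. Of all genes 89 passed in F1, 236 without the factor term, 444 with generations together and 55 with totals unscaled, and in F3 359, 569 and 77 for the first 3 of these. The causes were not tested.

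Replicate numbers did not pair the animals: of 17 same-numbered pairs 3 correlated above 0.1 (r from -0.38 to 0.31), and 2 were best for both. With a replicate block the members past the threshold were 4 in F1 and 0 in F3, and of all genes 247 and 0. A likelihood ratio test, DESeq2 and its scaling within edgeR were planned and not run, since the values are not raw counts. Since the values are adjusted, the depth behind a low gene is unknown, and with 5 to 7 animals a group a p that misses the threshold does not show that a gene was equal.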
